A study of Mus musculus with 12 samples.

Results

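Transcripts of 9 genes that drive or brake the passage from G1 into S phase were followed in mouse embryonic stem cells: the D cyclins Ccnd1, Ccnd2 and Ccnd3, their kinases Cdk4 and Cdk6, the E cyclins Ccne1 and Ccne2, their kinase Cdk2, and Cdkn1b, which encodes the inhibitor p27. They were chosen by gene symbol, and all 9 of the 9 were found among the 22416 genes of the deposited count table and passed the filter on low counts, as did 13239 genes in all. D cyclins bind Cdk4 or Cdk6 and start the phosphorylation of the retinoblastoma protein, and E cyclins bind Cdk2 and complete it, which frees E2F factors to switch on genes of DNA replication. p27 binds and blocks cyclin E-Cdk2. Mouse embryonic stem cells are known for a short G1 phase, little cyclin D-Cdk4 activity and cyclin E-Cdk2 activity through most of the cycle, and Ccnd1 is a well-known target of MEK-ERK and Wnt signalling.

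RNA was sequenced from 4 groups of 3 libraries. Knock-in cells (KI, eIF2α A/A) carried on both copies an allele of the translation initiation factor subunit eIF2α with alanine in place of the serine phosphorylated under stress, and wild-type (WT) cells were eIF2α+/+. Each genotype was held for 6 days either in LIF alone (leukaemia inhibitory factor) or in LIF/2i, the maintenance medium, which also holds the MEK inhibitor PD0325901 and the GSK3 inhibitor CHIR99021. All groups shared the same serum-free base medium with KnockOut Serum Replacement. The labels do not say how many clones or lines stand behind a genotype, nor whether replicates were separate cultures, so that spread within a group may be technical and p-values measure no more than that spread. The comparisons ask what the loss of eIF2α phosphorylation and the removal of the inhibitors change in these cells.

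The libraries held 2307219 to 9713857 counts, so that 3 counts, taken as the floor of a library, equalled 0.309 to 1.3 CPM (counts scaled to the library total). In WT LIF, the counts of replicates 1 and 3 differed by less than sampling noise allows (chi-square per degree of freedom 0.858). Their mean entered as 1 combined sample, so n = 2 in WT LIF and n = 3 in each other group. Levels are CPM scaled by TMM factors, and levels of different genes are compared per kb of coding sequence. The pluripotency genes Pou5f1 and Sox2 were high in every sample, at 714 to 1163 CPM and 401 to 761 CPM. Y-linked transcripts summed to 36.7 CPM in KI LIF and 41.6 CPM in KI LIF/2i in replicate 1 and to 1.43 to 3.90 CPM in the other KI libraries. They summed to 77.6 CPM in WT LIF and 44.8 CPM in WT LIF/2i in replicate 2 and to 156 to 261 CPM in the other WT libraries. These 4 libraries stood apart within their genotype in both media, and the fits were repeated without them, an alternative chosen after seeing the data that leaves 7 samples, with 1 in WT LIF. Since KI and WT libraries differed throughout, the mutation and other differences between the 2 cell populations cannot be told apart. Eif2s1, which encodes eIF2α, was measured in every sample, and counts per gene carry no information on its point mutation.

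Reads can be assigned to a single D cyclin only where the 3 coding sequences differ, so the 60-base stretch in which they are most alike is shown, with bases shared by all 3 in capitals (46 of 60). The sequences run 5′ to 3′ from the transcripts that the count table names, as given in GENCODE M21.
Ccnd1 (coding bases 186 to 245): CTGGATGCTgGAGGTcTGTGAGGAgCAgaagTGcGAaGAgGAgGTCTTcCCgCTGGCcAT
Ccnd2 (coding bases 180 to 239): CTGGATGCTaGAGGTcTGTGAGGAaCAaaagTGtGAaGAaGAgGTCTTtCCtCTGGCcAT
Ccnd3 (coding bases 186 to 245): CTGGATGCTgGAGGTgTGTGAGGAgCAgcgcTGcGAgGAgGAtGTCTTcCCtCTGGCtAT
Over their aligned coding bases, Ccnd1 and Ccnd2 were 71.3% identical, Ccnd1 and Ccnd3 66.7%, and Ccnd2 and Ccnd3 68.9%. The longest run shared by any pair of D cyclins was 20 bases. The E cyclins were 62.3% identical, with a longest shared run of 18 bases, and Cdk4 and Cdk6 68.7%, with a run of 20. Of all 28-base words in the coding sequences of Ccnd1, Ccnd2, Ccne1, Cdk2 and Cdkn1b, 0 occurred on either strand of a transcript of another gene. Ccnd3 shared 38.2% of its words with 1 pseudogene, Ccnd3-ps, Cdk6 shared 17.6% with transcripts of 15 other genes and 9.25% with the opposite strand of 2, Cdk4 shared 4.08% with 3, and Ccne2 shared 9.28% with the opposite strand of Ints8. How the authors counted reads with several matches, or used strand, is not given in the sources used here, so the levels of Ccnd3 and Cdk6 in particular are uncertain to that degree.

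Promoters are shown for Ccne1, Cdk6 and Cdk2, whose levels were called between media in 1 genotype, from RefSeq (GRCm38.p6), each from 250 bases before to 50 bases after the annotated start, 5′ to 3′ on the strand of the gene. Capitals mark matches on either strand to the GC box (GGGCGG), an E2F site (TTTCCCGC, TTTGGCGC, TTTCGCGC or TTTGCCGC), the E-box (CACGTG) and the CCAAT box (CCAAT).
Ccne1 (chr7:38107441-38107740, minus strand): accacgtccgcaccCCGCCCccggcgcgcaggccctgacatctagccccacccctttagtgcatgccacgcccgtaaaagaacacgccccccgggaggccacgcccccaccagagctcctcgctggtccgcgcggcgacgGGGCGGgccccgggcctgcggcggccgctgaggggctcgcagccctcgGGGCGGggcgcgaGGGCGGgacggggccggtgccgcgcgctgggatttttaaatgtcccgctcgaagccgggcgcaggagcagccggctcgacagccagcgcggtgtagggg
Cdk6 (chr5:3343643-3343942, plus strand): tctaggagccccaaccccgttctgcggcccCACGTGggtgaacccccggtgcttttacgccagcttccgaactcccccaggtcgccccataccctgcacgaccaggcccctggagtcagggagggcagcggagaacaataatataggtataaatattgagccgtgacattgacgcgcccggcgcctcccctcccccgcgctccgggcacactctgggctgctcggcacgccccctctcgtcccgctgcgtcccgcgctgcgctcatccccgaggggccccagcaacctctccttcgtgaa
Cdk2 (chr10:128705002-128705301, minus strand): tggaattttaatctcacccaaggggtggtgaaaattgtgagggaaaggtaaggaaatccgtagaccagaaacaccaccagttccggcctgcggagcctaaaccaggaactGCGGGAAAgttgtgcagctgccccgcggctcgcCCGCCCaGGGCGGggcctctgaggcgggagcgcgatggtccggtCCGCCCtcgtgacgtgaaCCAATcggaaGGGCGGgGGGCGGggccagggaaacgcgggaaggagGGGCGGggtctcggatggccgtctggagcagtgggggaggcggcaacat
The Ccne1 window held 4 GC boxes, the Cdk6 window 1 E-box, and the Cdk2 window 6 GC boxes, 1 E2F match and 1 CCAAT box, with 0 overlaps between matches in each. Among 32851 promoters of the same length, 35.7% held a GC box, 2.26% an E2F match, 7.15% an E-box and 37.4% a CCAAT box. The matches describe the letters of these windows only.

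Of the D cyclins, Ccnd1 was the member that set KI cells apart from WT cells. Cyclin D1 is the D cyclin most directly tied to mitogen signalling. Its gene lies on chromosome 7, 144929931 to 144939869 on the minus strand (GRCm38), and all 5 exons of the transcript ENSMUST00000093962 contain coding sequence. In LIF, Ccnd1 had 94.9, 94.9 and 110 CPM in KI replicates 1, 2 and 3, against 13.6 CPM in WT replicate 2 and 12.5 CPM in the combined WT sample. In LIF/2i, it had 116, 80.4 and 59.4 CPM in KI replicates 1, 2 and 3, against 22.3, 9.06 and 10.9 CPM in WT replicates 1, 2 and 3. In both media, the lowest KI sample lay above the highest WT sample, and within LIF/2i replicate 1 was the highest of its group in both genotypes.

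The fitted log2 fold change of Ccnd1 in KI over WT was 2.59 ± 0.32 (SE) in LIF/2i, or 6.01-fold (edgeR quasi-likelihood test, adjusted p = 0.00332), and 2.93 ± 0.38 in LIF, or 7.62-fold (adjusted p = 0.0162). Ccnd1 was the 1 member of 9 called in each of these comparisons, where 2.22% of all genes tested were called in LIF/2i (0.974% higher) and 0.144% in LIF (0.0151% higher). The KI and WT ranges were apart for 2 of 9 members in LIF/2i (Ccnd1 and Ccnd2) and 3 of 9 in LIF (Ccnd1, Ccnd3 and Cdk4), against 22.8% and 31.8% of all genes. Ccnd1 rose in LIF/2i whichever single library was left out, with log2 fold changes of 2.28 to 3.10. In LIF the size stayed at 2.86 to 2.98 with each library left out, but the call was lost without KI LIF replicate 2 (adjusted p = 0.0616), KI LIF replicate 3 (0.0845) or WT LIF replicate 2 (0.194), and without both agreeing WT LIF libraries (0.167). Without the 4 libraries apart in Y-linked level, Ccnd1 was called in both media (log2 2.01, adjusted p = 0.00564 in LIF/2i and log2 3.02, adjusted p = 0.0197 in LIF).

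Markers of other cell types stood as follows beside the Ccnd1 difference, and their part in it was not tested. In bulk RNA, fewer cells of a type and less RNA per cell cannot be told apart. The 9 neuroectoderm markers summed to 211 to 223 CPM in KI LIF, 106 to 172 CPM in KI LIF/2i, 105 to 126 CPM in WT LIF and 64.6 to 104 CPM in WT LIF/2i, with Neurog2 and Dcx at 0 in both KI groups. Of the 6 that passed the filter, 1 was called in KI over WT in each medium, and it made up most of the gap between the sums. This gene, Olig2, a neural transcription factor, had means of 55.9 against 9.98 CPM in LIF/2i (log2 2.50 ± 0.23 (SE), edgeR adjusted p = 0.000389) and 85.2 against 25.4 CPM in LIF (1.75 ± 0.25, adjusted p = 0.0221).

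The 13 primitive endoderm markers summed to 357 to 388 CPM in KI LIF, 292 to 314 CPM in KI LIF/2i, 648 to 876 CPM in WT LIF and 277 to 510 CPM in WT LIF/2i, and 0 of them were at 0 throughout a group. Of the 11 that passed the filter, 11 were below 0 in KI over WT in LIF (median log2 -1.69) and 1 was called, Lama1, a laminin gene, with means of 49.4 against 171 CPM (log2 -1.79 ± 0.26 (SE), edgeR adjusted p = 0.0221), while in LIF/2i 10 were below 0 and 0 were called (5 at an unadjusted p under 0.05, 1 by DESeq2). The 10 trophectoderm markers summed to 221 to 253 CPM in KI LIF, 94.3 to 226 CPM in KI LIF/2i, 351 to 460 CPM in WT LIF and 132 to 158 CPM in WT LIF/2i, with Tpbpa at 0 in every group. Of the 8 that passed the filter, 8 were below 0 in KI over WT in LIF (median log2 -1.25) and 1 in LIF/2i (median 0.64), and 0 were called in either medium (4 and 0 at an unadjusted p under 0.05, 0 by DESeq2). Of all 13239 genes tested, 1422 had an unadjusted p under 0.05 in LIF and 2715 in LIF/2i. DESeq2 called 203 and 913 genes in all.

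Removal of the inhibitors did not move Ccnd1 past the threshold in either genotype. Its log2 fold change in LIF over LIF/2i was 0.22 ± 0.30 (SE) in KI cells (edgeR adjusted p = 0.722) and -0.12 ± 0.37 in WT cells (adjusted p = 0.88), and the WT value turned to 0.39 without WT LIF/2i replicate 1. In order of mean level, the groups stood at 99.8 ± 8.49 CPM in KI LIF and 85.4 ± 28.8 CPM in KI LIF/2i (SD, n = 3 each), then 14.1 ± 7.15 CPM in WT LIF/2i (SD, n = 3) and 13.1 ± 0.82 CPM in WT LIF (SD, n = 2), with ranges that overlapped between the media of a genotype and not between genotypes.

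**Figure D1:**
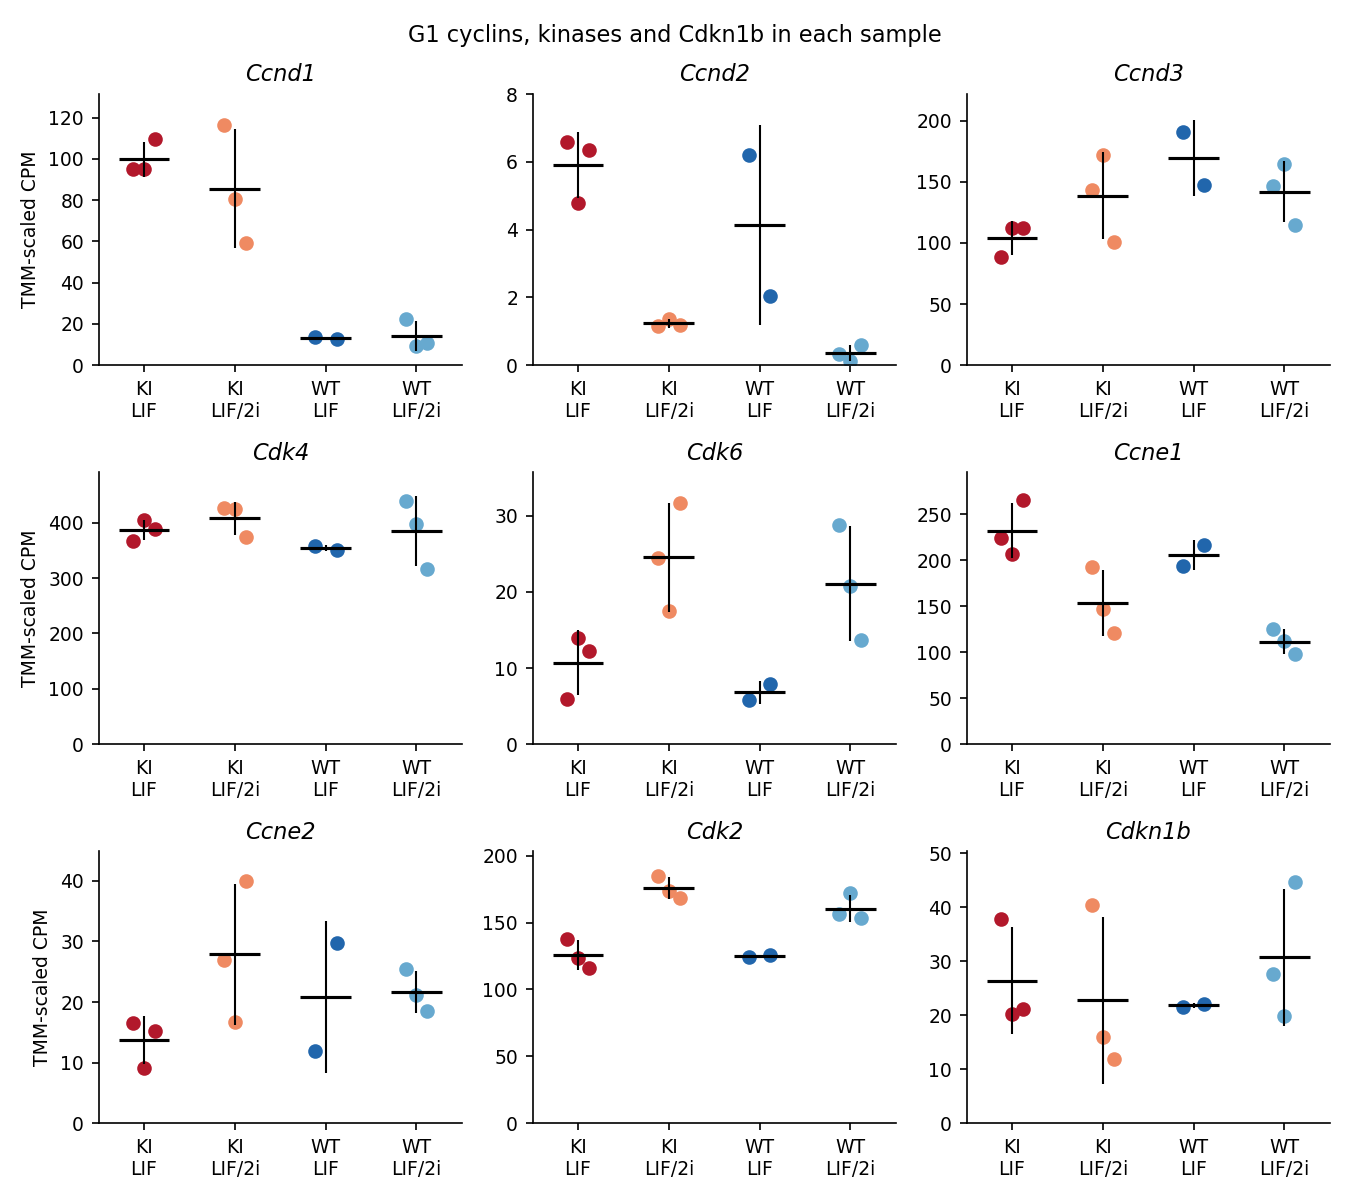
TMM-scaled CPM of the 9 genes in each of the 11 samples, with the mean (horizontal bar) and SD (vertical bar) of each group, on linear axes that start at 0. Ccnd1 lies at 59.4 to 116 CPM in KI samples and 9.06 to 22.3 CPM in WT samples, while Ccnd2 and Ccne1 are higher and Cdk2 is lower in LIF than in LIF/2i within each genotype.

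Ccnd2, a D cyclin prominent in blood and neural progenitor cells, behaved otherwise: it was scarce everywhere and higher in LIF. Its gene lies on chromosome 6, 127125162 to 127151060. KI cells in LIF had 19, 23 and 15 counts of Ccnd2 (6.58, 4.80 and 6.35 CPM in replicates 1, 2 and 3), and KI cells in LIF/2i had 11, 11 and 7 counts (1.15, 1.37 and 1.18 CPM). WT cells in LIF had 41 counts in replicate 2 (6.22 CPM) and a mean of 13 counts in the combined sample (2.05 CPM), and WT cells in LIF/2i had 2, 1 and 2 counts (0.316, 0.133 and 0.608 CPM), each under the floor of 3 counts. The samples in LIF lay above those in LIF/2i in both genotypes. Ccnd2 passed the filter on low counts through its LIF libraries, so it entered the test where it was high. It rose in LIF over LIF/2i by a log2 fold change of 2.23 ± 0.49 (SE) in KI cells (edgeR adjusted p = 0.016) and 3.68 ± 0.65 in WT cells (adjusted p = 0.0041), and with no filter it was called as well (adjusted p = 0.0147 in KI cells and 0.00237 in WT cells).

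Because so few counts stand behind the WT LIF/2i group, ratios of summed counts are given as well. The ratio of Ccnd2 in LIF over LIF/2i was 4.61 in KI cells (95% exact interval 2.90 to 7.48, from 57 and 29 counts) and 14.3 in WT cells (5.77 to 45.8, from 54 and 5 counts), intervals that cover counting error only. The 54 counts include the mean of 13 of the combined WT LIF sample, which is not a plain count, so the WT interval is approximate. In LIF/2i, the ratio of KI over WT was 4.21 (1.61 to 13.9, from 29 and 5 counts), and that difference was not past the threshold across samples (log2 1.95 ± 0.66, edgeR adjusted p = 0.132). In LIF the log2 difference of KI over WT was 0.50 ± 0.51 (adjusted p = 0.796), or 1.48 without WT LIF replicate 2. The KI call did not survive removal of KI LIF replicate 3 (log2 2.18, adjusted p = 0.0599), nor the WT call that of WT LIF replicate 2 (log2 2.67, adjusted p = 0.0709), and neither call held without the 4 libraries apart in Y-linked level (log2 2.08, adjusted p = 0.0613 in KI cells and log2 2.21, adjusted p = 0.167 in WT cells).

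The same marker lists were read between media beside Ccnd2, and their part in its change was not tested. In KI cells 2 of 8 trophectoderm, 1 of 11 primitive endoderm, 2 of 6 neuroectoderm and 3 of 10 fibroblast markers that passed the filter rose in LIF over LIF/2i, and 1 fibroblast marker fell. In WT cells 5, 2, 2 and 5 of them rose and 1 fibroblast marker fell. Of all genes tested, 4.05% were called higher and 5.01% lower in KI cells, and 6.31% and 6.69% in WT cells. Hand1 and Pax6, called higher in both genotypes, had means of 0.118 and 0.377 CPM in KI LIF/2i and 0.154 and 0.15 CPM in WT LIF/2i. Such markers passed the filter through their LIF libraries, as Ccnd2 did. The trophectoderm sums overlapped between media in KI cells and lay apart in WT cells. WT LIF replicate 2, the WT sample highest in Ccnd2, was also the WT LIF sample higher in the trophectoderm, primitive endoderm, neuroectoderm and fibroblast sums. The 14 fibroblast markers had a median log2 difference of 1.87 in KI cells and 3.13 in WT cells over the 10 that passed the filter, 9 and 7 of them above 0. Their summed level was lower in LIF, at 2118 to 2664 CPM in KI LIF, 3754 to 4576 CPM in KI LIF/2i, 2019 to 2470 CPM in WT LIF and 4515 to 5626 CPM in WT LIF/2i. Fn1, which encodes fibronectin and made up most of that sum, fell in LIF in both genotypes by edgeR (1950 against 4024 CPM in KI cells, and 1723 against 4841 CPM in WT cells). The collagen genes Col1a1 and Col1a2 were called higher in LIF in both genotypes, at 57.0 and 40.0 CPM in KI cells and 91.2 and 107 CPM in WT cells, against 8.18 and 1.16 CPM in KI cells and 2.06 and 0.348 CPM in WT cells in LIF/2i. Acta2 of the same list was also called higher in LIF, at 51.5 against 6.12 CPM in KI cells and 59.8 against 2.12 CPM in WT cells. Lum, another of the 14, was at 0 in every group.

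Ccnd3 was the most abundant D cyclin in every sample but KI LIF replicate 1. Its gene lies on chromosome 17, 47505051 to 47599683. Ccnd3 had 88.3, 112 and 112 CPM in KI LIF, 143, 172 and 101 CPM in KI LIF/2i, 191 CPM and 147 CPM in WT LIF (replicate 2 and the combined sample) and 146, 164 and 115 CPM in WT LIF/2i. The KI samples in LIF lay below both WT samples in LIF, but the difference was not past the threshold (log2 -0.70 ± 0.23 (SE), edgeR adjusted p = 0.275), and in LIF/2i it was -0.04 ± 0.20 (adjusted p = 0.943). In LIF over LIF/2i it had -0.41 ± 0.21 in KI cells (adjusted p = 0.257) and 0.25 ± 0.23 in WT cells (adjusted p = 0.528).

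Per kb of coding sequence, Ccnd1 transcripts made up 44.6% to 49.7% of the D cyclin sum in KI LIF and 31.5% to 44.4% in KI LIF/2i, against 6.41% to 7.64% in WT LIF and 5.18% to 13.1% in WT LIF/2i. The group means were 47.4% ± 2.58 and 37.5% ± 6.52 in KI cells (SD, n = 3 each), and 7.02% ± 0.873 (SD, n = 2) and 8.94% ± 3.97 (SD, n = 3) in WT cells. Ccnd3 made up nearly all of the rest, at 46.8% to 67.9% in KI samples and 86.7% to 94.7% in WT samples. Ccnd2 never passed 3.52%. The summed level of the D cyclins overlapped between genotypes, at 216 to 259 CPM per kb in KI LIF, 184 to 296 in KI LIF/2i, 185 to 241 in WT LIF and 144 to 198 in WT LIF/2i. These shares describe the samples and were not tested, and Ccnd3 enters them with the words it shares with Ccnd3-ps.

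**Figure D2:**
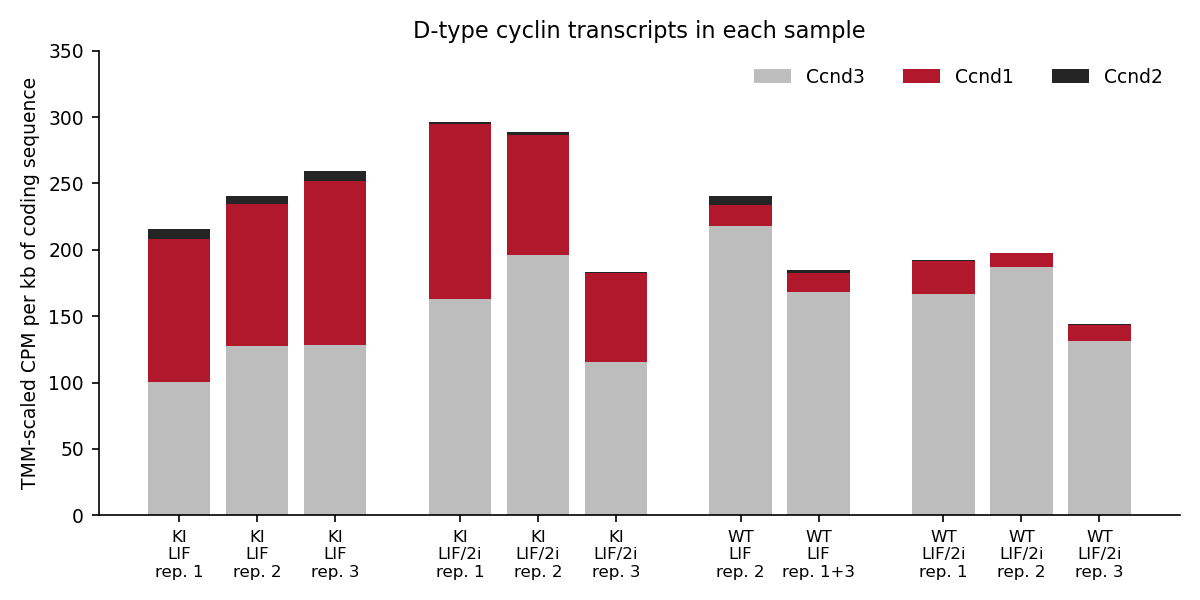
Level of Ccnd3, Ccnd1 and Ccnd2 in each of the 11 samples, in TMM-scaled CPM per kb of coding sequence, stacked from 0. The Ccnd1 segment takes 31.5% to 49.7% of the bar in KI samples and 5.18% to 13.1% in WT samples, while the bar heights overlap between genotypes.

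Of the partners of the D cyclins, Cdk4 carried nearly all of the kinase transcripts, and its groups were close. Its gene lies on chromosome 10, 127063534 to 127067920. It had 368 to 404 CPM in KI LIF, 374 to 427 CPM in KI LIF/2i, 351 and 359 CPM in WT LIF and 316 to 440 CPM in WT LIF/2i. Its 4 log2 differences lay between -0.12 and 0.12, with SEs of 0.13 to 0.15, and none was past the threshold (edgeR adjusted p of 0.675 to 0.834). The KI samples in each medium lay above both WT samples in LIF, and the other pairs of groups overlapped. Cdk4 was also the most abundant member per kb in every group, at 425 ± 20.1 CPM per kb in KI LIF, 449 ± 32.8 in KI LIF/2i, 390 ± 6.22 in WT LIF and 423 ± 69.3 in WT LIF/2i (SD, n = 3, 3, 2 and 3), and its range met that of the next gene in none of the 4 groups. It made up 92.7% to 98.5% of the sum of Cdk4 and Cdk6 per kb.

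Cdk6, the sparser of these kinases, was lower in LIF. Its gene lies on chromosome 5, 3343893 to 3531008. KI cells in LIF had 5.89, 14.0 and 12.3 CPM and KI cells in LIF/2i 24.4, 17.4 and 31.7 CPM. WT cells in LIF had 5.76 CPM in replicate 2 and 7.90 CPM in the combined sample, and WT cells in LIF/2i 28.8, 20.8 and 13.7 CPM. The samples in LIF lay below those in LIF/2i in both genotypes. Cdk6 fell by 1.64 ± 0.42 (SE) on the log2 scale in WT cells (edgeR adjusted p = 0.0248), and in KI cells its log2 value of -1.18 ± 0.37 was not past the threshold (adjusted p = 0.067) but was called with the replicate block in KI libraries only (-1.15, adjusted p = 0.029). The WT call did not hold with WT LIF replicate 2 left out (adjusted p = 0.195), nor with WT LIF/2i replicate 1 (0.0898) or WT LIF/2i replicate 2 (0.0522), nor with both agreeing WT LIF libraries left out (0.0881). KI over WT, Cdk6 had 0.20 ± 0.34 in LIF/2i (adjusted p = 0.775) and 0.66 ± 0.43 in LIF (adjusted p = 0.623).

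Among the E cyclins, Ccne1 moved with the medium and Ccne2 was less abundant and less even. Ccne1 lies on chromosome 7, 38097984 to 38107534. It had 225, 207 and 265 CPM in KI LIF, 192, 147 and 121 CPM in KI LIF/2i, 194 CPM (replicate 2) and 217 CPM (combined sample) in WT LIF, and 125, 112 and 97.6 CPM in WT LIF/2i. The samples in LIF lay above those in LIF/2i in both genotypes. Ccne1 rose in WT cells by a log2 fold change of 0.88 ± 0.19 (SE), or 1.84-fold (edgeR adjusted p = 0.0119). In KI cells its value of 0.59 ± 0.18 was just short of the threshold (adjusted p = 0.0558). It was past the threshold with the replicate block in KI libraries only (0.62, adjusted p = 0.0302) and over 12 libraries (0.62, adjusted p = 0.0258). The block over 12 libraries shares its replicate effects with WT cells, whose numbers were not taken as pairs. With WT LIF replicate 2 left out the WT call missed the threshold (adjusted p = 0.0659), as it did with both agreeing WT LIF libraries left out (0.0914), and the KI value was called without KI LIF/2i replicate 1 (log2 0.79, adjusted p = 0.0153). KI over WT, Ccne1 had 0.46 ± 0.18 in LIF/2i (adjusted p = 0.17) and 0.18 ± 0.20 in LIF (adjusted p = 0.819).

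Ccne2 (chromosome 4, 11191354 to 11204675) had 16.6, 9.18 and 15.2 CPM in KI LIF, 26.9, 16.7 and 40.0 CPM in KI LIF/2i, 11.98 CPM (replicate 2) and 29.7 CPM (combined sample) in WT LIF, and 25.4, 21.2 and 18.5 CPM in WT LIF/2i. The KI samples in LIF lay just below those in LIF/2i, and the WT groups overlapped. Its largest difference, LIF over LIF/2i in KI cells, was -1.04 ± 0.39 (SE) and not past the threshold (edgeR adjusted p = 0.127). It was called with the replicate block in KI libraries only (-0.96, adjusted p = 0.0121). The block over 12 libraries, with the limit given for Ccne1, called it as well (-0.99, adjusted p = 0.0461). In WT cells the value was -0.07 ± 0.42 (adjusted p = 0.945), or -0.86 without both agreeing WT LIF libraries. KI over WT it had 0.35 ± 0.37 in LIF/2i and -0.63 ± 0.43 in LIF (adjusted p = 0.627 and 0.659). Ccne1 made up 75% to 95.7% of the E cyclin sum per kb in KI samples and 82.9% to 94.1% in WT samples.

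Cdk2, the kinase that E cyclins activate, was lower in LIF. Its gene lies on chromosome 10, 128697944 to 128705030, and its promoter window is the one shown with an E2F match. It had 138, 123 and 116 CPM in KI LIF, 185, 174 and 168 CPM in KI LIF/2i, 124 CPM (replicate 2) and 125 CPM (combined sample) in WT LIF, and 156, 172 and 153 CPM in WT LIF/2i. The samples in LIF lay below those in LIF/2i in both genotypes. Cdk2 fell by 0.48 ± 0.12 (SE) on the log2 scale in KI cells (edgeR adjusted p = 0.0242), while in WT cells its value of -0.36 ± 0.13 was not past the threshold (adjusted p = 0.0901). The KI call was lost without KI LIF replicate 2 (adjusted p = 0.102) or 3 (0.117), or KI LIF/2i replicate 1 (0.0684) or 2 (0.0509). KI and WT cells differed by 0.13 ± 0.12 in LIF/2i and by 0.01 ± 0.13 in LIF (adjusted p = 0.557 and 0.989).

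Cdkn1b, the p27 gene (chromosome 6, 134920401 to 134925513), was not called in any comparison with all samples, and its samples were uneven. It had 37.7, 20.2 and 21.2 CPM in KI LIF, 40.4, 15.9 and 11.9 CPM in KI LIF/2i, 21.5 CPM (replicate 2) and 22.1 CPM (combined sample) in WT LIF, and 27.6, 19.9 and 44.7 CPM in WT LIF/2i. KI replicate 1 was the highest KI sample in each medium, and every pair of groups overlapped. Its log2 differences were -0.40 ± 0.43 for KI over WT in LIF/2i, 0.27 ± 0.50 for KI over WT in LIF, 0.20 ± 0.44 for LIF over LIF/2i in KI cells and -0.48 ± 0.49 in WT cells (SE, edgeR adjusted p of 0.593 to 0.9). Without KI LIF/2i replicate 1, the value for KI over WT in LIF/2i was -1.13 (adjusted p = 0.0794) and that for LIF over LIF/2i in KI cells 0.91 (adjusted p = 0.165). Without the 4 libraries apart in Y-linked level, Cdkn1b was called lower in KI over WT in LIF/2i (log2 -1.37, adjusted p = 0.0265).

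Across the family, 2 of 9 members were called in LIF over LIF/2i in KI cells, Ccnd2 higher and Cdk2 lower, where 9.06% of all genes tested were called, 4.05% higher and 5.01% lower. In WT cells 3 of 9 were called, 2 higher (Ccnd2 and Ccne1) and 1 lower (Cdk6), where 13.0% of all genes were called, 6.31% higher and 6.69% lower. The LIF and LIF/2i ranges were apart for 5 of 9 members in KI cells and 4 of 9 in WT cells, against 27.2% and 48.8% of all genes. The median log2 difference of the 9 was -0.08 in KI cells and -0.12 in WT cells, beside -0.03 and 0.01 over all genes, and for KI over WT it was 0.20 in LIF/2i and 0.18 in LIF, beside 0.02 and 0.00. In KI cells the replicate numbers were taken to pair the samples across media, from their counts and not from the labels. With the number as a block in the KI libraries alone, an alternative chosen after seeing the data, 5 of 9 were called, where 16.6% of 12072 genes were (8.4% higher and 8.22% lower). Under that block Ccne1, Cdk6 and Ccne2 passed the threshold beside Ccnd2 and Cdk2. Ccnd2, which passed the filter through its LIF libraries, is in each of these counts. Without the 4 libraries apart in Y-linked level, which leaves 1 sample in WT LIF, these calls with all samples did not hold. The log2 values were then 2.08 for Ccnd2 and -0.52 for Cdk2 in KI cells. In WT cells they were 2.21 for Ccnd2, 0.96 for Ccne1 and -1.46 for Cdk6. The share of all genes called in that fit is not given here, so a general loss of calls cannot be told apart. The tests of the difference between genotypes in the medium effect called 0 of 9 members by edgeR (0.0% of all genes), with 0 at an unadjusted p under 0.05 and 0 by DESeq2. Ccnd3 came nearest, at -0.66 ± 0.31 (SE, unadjusted p = 0.0509, adjusted p = 0.819). The medium effects on Cdk6, Ccne1 and Cdk2, each called in 1 genotype, are thus not shown to differ between genotypes.

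**Figure D3:**
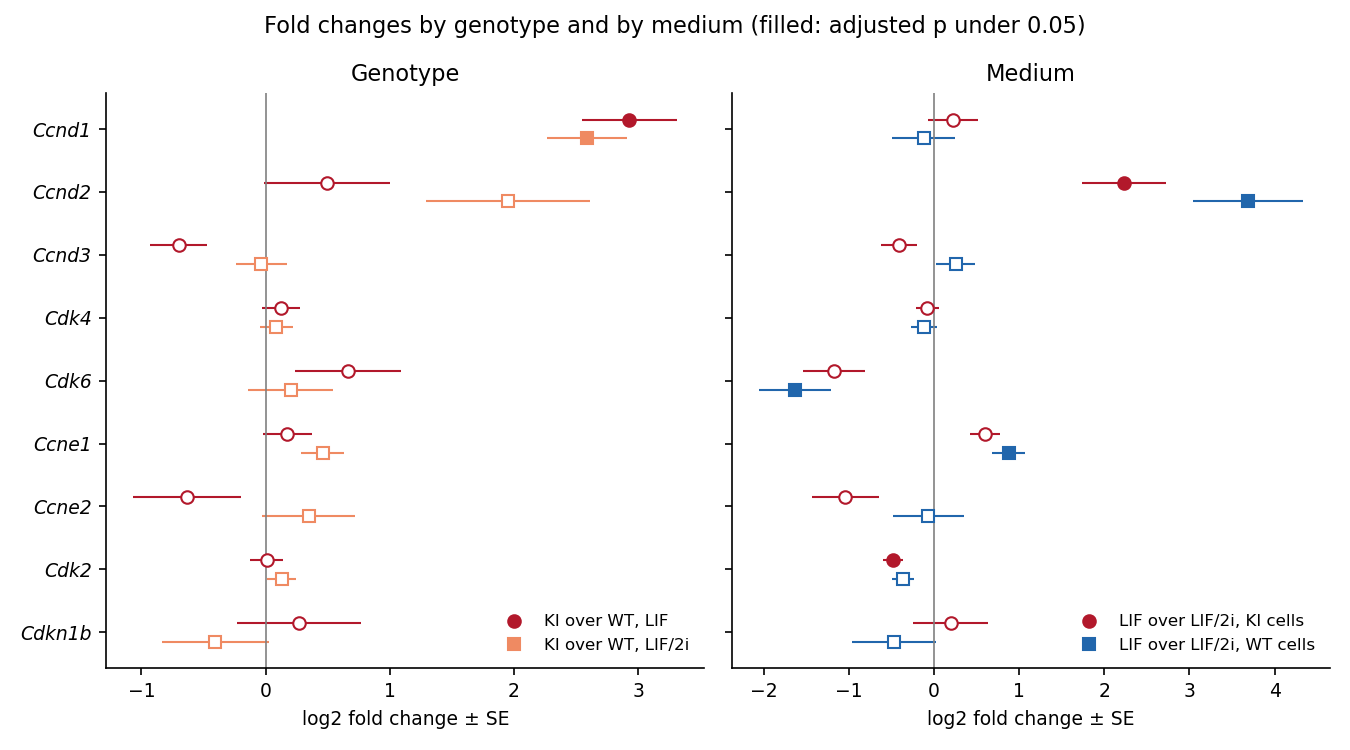
Log2 fold changes of the 9 genes with their SEs, for KI over WT in each medium (left) and LIF over LIF/2i in each genotype (right), with filled symbols where the adjusted p was under 0.05. Ccnd1 has the filled symbols on the left, at 2.59 and 2.93, and on the right Ccnd2 lies at 2.23 and 3.68 while Cdk6 lies at -1.18 and -1.64.

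**Figure D4:**
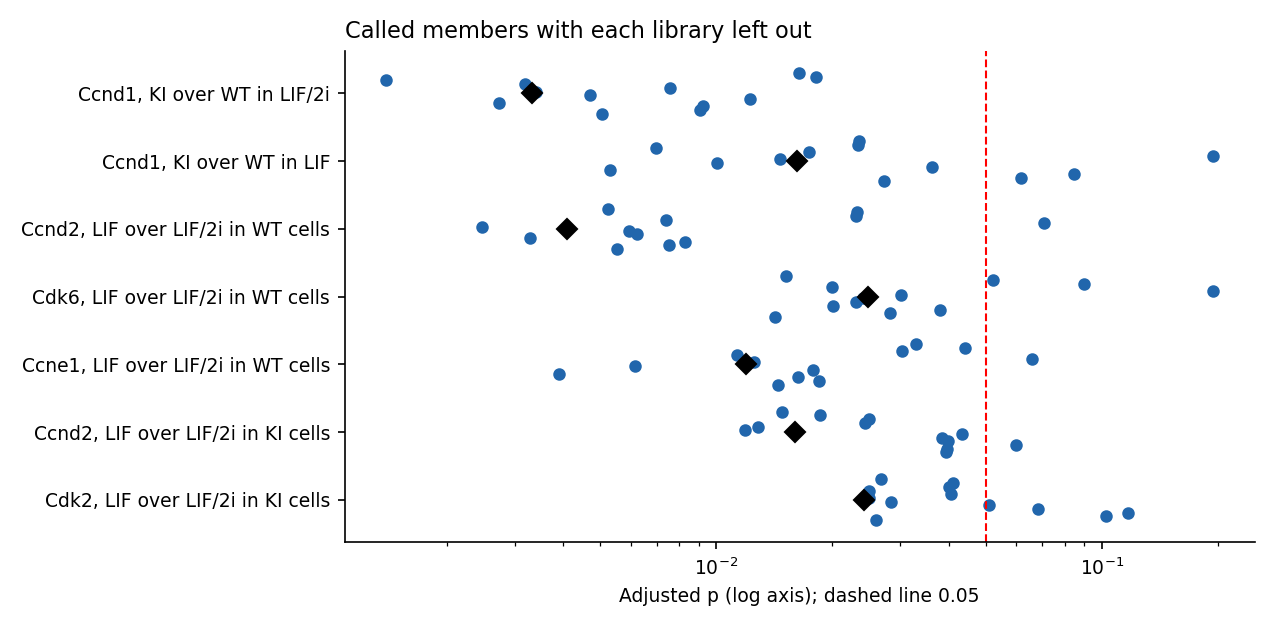
Adjusted p of the 7 calls among the members, with all samples (black diamonds) and with each of the 12 libraries left out (blue points), on a log axis with the threshold of 0.05 dashed. The call of Ccnd1 in LIF/2i is the one whose points all lie left of the line, at 0.00139 to 0.0181.

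Calls among the other genes of the pathway stand beside 9.06% of all genes in LIF over LIF/2i in KI cells and 13.0% in WT cells. Of 6 other CDK inhibitors, 1 fell in LIF over LIF/2i in each genotype: Cdkn1a, which encodes p21, had means of 33.8 CPM in LIF against 110 CPM in LIF/2i in KI cells (log2 -1.69 ± 0.27 (SE), edgeR adjusted p = 0.00283) and of 48.5 against 179 CPM in WT cells (-1.89 ± 0.30, adjusted p = 0.00249). Of the Myc factors, which promote entry into the cycle, Myc rose in LIF in both genotypes, to a mean of 50.5 CPM against 13.0 CPM in KI cells (log2 1.96 ± 0.39, adjusted p = 0.0103) and 33.0 against 3.98 CPM in WT cells (2.98 ± 0.46, adjusted p = 0.0023). Mycn rose in KI cells (215 against 124 CPM, log2 0.79 ± 0.19, adjusted p = 0.0252).

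Of 13 pocket proteins and E2F factors, 15 genes of CDK activation and cyclin or p27 turnover, and 5 later cyclins and Cdk1, 0 were called by edgeR in any comparison. In LIF over LIF/2i, 2 of 13, 2 of 15 and 0 of 5 had an unadjusted p under 0.05 in each genotype. So did 3137 of the 13239 genes tested in KI cells and 3637 in WT cells. By DESeq2 the calls were 0 in KI cells and 1, 1 and 0 in WT cells, beside 1604 and 2176 genes in all. DESeq2 was run on all 22416 genes with its own filter, so its totals are not out of the 13239. Of 20 S phase genes under E2F control, 2 fell in LIF over LIF/2i in KI cells: Uhrf1, a reader of hemimethylated DNA (161 against 286 CPM, log2 -0.83 ± 0.13, adjusted p = 0.00326), and Orc1, a subunit of the origin recognition complex (125 against 195 CPM, log2 -0.65 ± 0.16, adjusted p = 0.0241). In WT cells 1 of 20 fell, the replicative helicase subunit Mcm3 (515 against 736 CPM, log2 -0.51 ± 0.15, adjusted p = 0.0427). At an unadjusted p under 0.05 there were 12 of 20 in KI cells and 4 of 20 in WT cells, and DESeq2 called 4 and 1. These stand beside the same counts over all genes, 3137 and 3637 unadjusted and 1604 and 2176 by DESeq2. The median of the 20 was -0.34 in KI cells, with 20 below 0, and -0.17 in WT cells, with 15 below 0. In KI over WT, 0 genes of these lists were called by edgeR in either medium. In LIF/2i, 4 of 6 CDK inhibitors, 3 of 13 pocket proteins and E2F factors, 1 of 15 activation and turnover genes, 1 of 2 Myc factors, 3 of 20 S phase genes and 0 of 5 later cyclins had an unadjusted p under 0.05. So did 2715 of the 13239 genes tested. DESeq2 called 1 gene of these lists there, Myc, beside 913 genes in all. In LIF the unadjusted p was under 0.05 for 1 CDK inhibitor and 1 S phase gene, beside 1422 of all genes tested. DESeq2 called 0 of these lists there, beside 203 genes in all. The S phase list had medians of 0.12 in LIF/2i and -0.06 in LIF.

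The genes whose log2 CPM followed each called member most closely over the 11 samples were found by the root mean square difference after centring, among genes of at least 5 CPM. For Ccnd1 they were Pcolce (0.64), Chga (0.67) and Olig2 (0.71), for Ccnd2 Mest (0.37), Klk8 (0.39) and S100a6 (0.40), and for Ccne1 Gtf2h4 (0.19), Shkbp1 (0.19) and Slc29a1 (0.20). For Cdk6 they were Nynrin (0.27), Arhgef26 (0.29) and Fry (0.31), and for Cdk2 Spg21 (0.08), Gm28043 (0.09) and S100pbp (0.09). Olig2 also rose with the medium in WT cells (log2 1.36 ± 0.25 (SE), edgeR adjusted p = 0.0052). Pcolce, a procollagen processing factor, had means of 114 CPM in KI LIF, 88.2 CPM in KI LIF/2i, 37.8 CPM in WT LIF and 16.3 CPM in WT LIF/2i.

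Per kb, Cdk4 had the highest mean and Ccnd2 the lowest in every group, and the range of Ccnd2 overlapped that of Cdk6 in both LIF groups. Between them, Cdk2 (121 ± 10.7), Ccnd3 (119 ± 15.6) and Ccnd1 (113 ± 9.59 CPM per kb) overlapped in KI LIF under Ccne1 (190 ± 24.4), and Cdk2 (169 ± 7.96), Ccnd3 (158 ± 40.7), Ccne1 (126 ± 29.5) and Ccnd1 (96.5 ± 32.6) overlapped in sequence in KI LIF/2i (SD, n = 3). In WT cells Ccnd1 stood far lower in the order, at 14.8 ± 0.926 CPM per kb in LIF (SD, n = 2) and 15.9 ± 8.08 in LIF/2i (SD, n = 3), below Ccne2 (17.2 ± 10.3 and 17.9 ± 2.87) and Cdkn1b (36.9 ± 0.716 and 52.0 ± 21.5), and its range overlapped that of Ccne2 in both media.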

How the data were processed

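The authors deposited 1 table of raw counts, without normalization, for 12 RNA-seq libraries (2 genotypes, 2 media). Per the labels' protocols, RNA came from the supernatant of a spun lysate, was depleted of ribosomal RNA, fragmented and carried through a ribosome profiling library preparation. Bowtie 1.3.0, UMI-tools 1.0.1 and cutadapt 3.4 appear, with no roles, in the submitters' processing notes. The sources used here do not give the genome build, annotation, counting tool or strand setting. Each count belongs to the coding region of a named transcript, per the file headers. Coordinates and coding lengths (stop codon left out) are from GENCODE M21 (GRCm38), which holds 22155 of the 22416 transcripts, 21766 with the same symbol. Totals per library, 2307219 to 9713857, set the precision of low genes.

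Under R 4.3.3, edgeR 4.0.16 fitted 1 mean per group over 11 samples (robust glmQLFit) after filterByExpr (minimum count 10) and TMM scaling, whose factors were 0.945 to 1.04. Contrasts were tested two-sided with Benjamini-Hochberg adjustment over 13239 genes at 0.05, and SEs were taken from the F statistic. The fit was checked on simulated counts. Promoters of 6 members were matched by symbol in RefSeq. Alternatives were DESeq2 1.42.0, its size factors, library totals, other filters, fewer groups, 12 separate libraries, a replicate block, leaving out each library, and leaving out the 4 libraries apart in Y-linked level. DESeq2 used the 22416 genes before filterByExpr, so the number of genes it called has no share over the 13239. Genes named from other lists are those called (at most 4 per list and comparison), and genes most like a called member are the nearest 3. The members and lists were chosen with earlier results of these data known. Marker lists serve as a check of other cell types.

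Replicate numbers recur in every group. Same-numbered KI samples deviated together from their group means across media (r = 0.5, 0.373 and 0.22 across genes, which are not independent replicates), all over 0.1, so there the numbers were taken to pair the samples. KI LIF replicate 3 followed KI LIF/2i replicate 2 nearly as closely (r = 0.214), so its partner is uncertain. The labels do not state this pairing. In each other comparison at least 1 pair was under 0.1. Across media in WT cells, r was 0.0373, 0.125 and 0.0506 for replicates 1, 2 and 3. WT replicate 2 also stood apart in Y-linked level in both media, as KI replicate 1 did. A pairing of WT samples by number was thus not taken but may exist, and no block was fitted to WT libraries alone. The labels give no batch.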

Additional observations from a re-analysis of the deposited data

How the results depend on the processing

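Every call among the members kept its direction under all alternatives run. Of the members' log2 differences under an alternative, 917 stayed on the same side of the threshold in the same direction, 23 lost a call, 17 gained one and 32 turned direction, none of them a call. The number of members called in LIF over LIF/2i in KI cells was 2 with all samples, where 1199 genes were called in all. It became 4 by DESeq2, which called 1604 genes in all, and 4 with 12 libraries counted separately. With the replicate block it became 4 over 12 libraries. In KI libraries only (chosen after seeing the data) the block gave 5, beside 16.6% of all genes. With only the groups compared it was 1, and it ranged from 0 to 2 with a library left out. Library totals alone lost Cdk2 (adjusted p = 0.0507) and called Ccne1 (0.0356) there, and DESeq2 size factors called Ccne1 (0.0482). In WT cells the 3 became 1 without both agreeing WT LIF libraries and ranged from 0 to 3 with a library left out, and for KI over WT in LIF the 1 became 0 without that pair and 0 to 1 with a library left out. Without the 4 libraries apart in Y-linked level (chosen after seeing the data), Cdkn1b was called beside Ccnd1 for KI over WT in LIF/2i. Between media, the calls with all samples did not hold in either genotype, and Ccne1 was called in KI cells. The 1 member called in LIF/2i otherwise held, and the 0 of the genotype by medium difference held throughout. Over 12 libraries the replicate block changed no other call than those of Ccne1 and Ccne2 in KI cells and Cdk2 in WT cells (adjusted p = 0.0316), where DESeq2 and 12 separate libraries also called Cdk2. That block assumes the same replicate effects in both genotypes, which the labels do not state. It also counts the agreeing WT LIF replicates 1 and 3 as separate samples, as the fit of 12 separate libraries does. All genes called in KI over WT numbered 294 in LIF/2i and 19 in LIF, against 913 and 203 by DESeq2. In LIF over LIF/2i in WT cells they numbered 1722, against 2176 by DESeq2. For the other alternatives, save the block in KI libraries only, the share of all genes called is not given here. Changes there in the number of members called cannot be told from a general change in calls.

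Values that turned direction were not called, and not all of them were small. For KI over WT in LIF without both agreeing libraries, Ccnd2 went from 0.50 to -0.088 and Ccne2 from -0.63 to 0.17. In that comparison Cdk2 became -0.0045 at a minimum count of 30 and -0.0046 with only the groups compared. For LIF over LIF/2i in WT cells, Ccne2 became 0.0070 with library totals alone and 0.12 with 12 separate libraries. Without the 4 libraries apart in Y-linked level, Ccnd3 became 0.048 for KI over WT in LIF/2i, Cdk2 -0.080 and Cdkn1b -0.11 for KI over WT in LIF, and Ccne2 0.42 for LIF over LIF/2i in WT cells. With a library left out, KI over WT in LIF/2i ranged from -0.24 to 0.14 for Ccnd3, -0.038 to 0.18 for Cdk4, -0.025 to 0.47 for Cdk6 and -0.0028 to 0.59 for Ccne2. KI over WT in LIF ranged from -0.061 to 0.063 for Cdk2 and -0.079 to 0.43 for Cdkn1b. LIF over LIF/2i ranged from -0.40 to 0.39 for Ccnd1 and -0.16 to 0.44 for Ccne2 in WT cells, and from -0.15 to 0.91 for Cdkn1b in KI cells. The difference between genotypes in the medium effect ranged from -0.18 to 0.64 for Ccnd1 and -0.064 to 0.16 for Cdk4. The cause was not tested. Where leaving out libraries leaves 1 WT LIF sample, that sample is assumed to vary like the other groups. The Ccnd1 share of the D cyclin level moved by less than 1 SD when counts were not divided by coding length. The coding lengths of Ccnd1, Ccnd2 and Ccnd3 are 885, 867 and 876 bases, so that change could hardly move the share and does not test it. Leaving out a single sample of so small a group cannot move its mean by 1 SD, so it does not test the share. Depth limits Ccnd2, with 1 or 2 counts in each WT LIF/2i library.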
